A study of Rattus norvegicus with 24 samples.

Results

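Ephrins, Eph receptors, netrins, Slits and their receptors were followed in messenger RNA libraries of the rat brain after traumatic brain injury (TBI). The genes were taken by name from the deposited annotation: every ephrin-A and ephrin-B ligand, EphA and EphB receptor, netrin, Unc5 receptor, Dcc, neogenin, Slit and Robo gene. A total of 44 loci carried such a name, of 26641 named loci and 42334 loci in all. Where a name had several loci, the locus with the highest mean over the 24 libraries stood for it, which left 39 genes: 5 ephrin-A and 3 ephrin-B ligands, 9 EphA and 5 EphB receptors, 4 netrins, 4 Unc5 receptors, Dcc and neogenin, 3 Slits and 4 Robo receptors.

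The animals were adult male Sprague-Dawley rats, without a transgene. In 6 of them TBI had been produced by lateral fluid percussion, in which a pulse of fluid strikes the intact dura through a craniectomy over the left parietal lobe. The 6 sham-operated controls had the anesthesia and the same surgery, but no impact, so both groups carry the craniectomy. According to the study's methods, imaging was used to pick out TBI rats with a chronic inflammatory rim around the lesion, so the TBI group stands for that kind of rat. Tissue of the perilesional cortex and of the thalamus on the injured side was taken from every rat 3 months after the operation, which gave 4 groups of 6 libraries, with 1 library per rat and region.

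These families carry the classical signals of axon guidance. Ephrins are ligands held in the cell membrane, ephrin-A by a lipid anchor and ephrin-B by a transmembrane segment, and they bind Eph receptor tyrosine kinases on a neighbouring cell. Signals pass in both directions and mostly drive growth cones and cells apart. Netrins are secreted and attract axons through Dcc or repel them through Unc5 receptors, while neogenin, a relative of Dcc, also binds the repulsive guidance molecules. Slits are secreted repellents that act on Robo receptors. In the adult brain many of these genes stay expressed at synapses, on astrocytes and on blood vessels.

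The promoters of the members whose TBI and sham libraries did not overlap in a region are shown. Overlap was the only criterion and does not rank the differences by strength. Robo3 in the thalamus no longer passed the test given further on in 8 of 12 fits with 1 library left out. The RefSeq table for the assembly GRCr8, which is not the assembly of the deposited loci, held promoters of 32 of the 39 genes. Below are the 100 bases just before the start site, 5′ to 3′, with capitals for the GC box GGGCGG and its reverse complement CCGCCC, which may overlap one another.
Efna1, chr2:176986822-176986921 (- strand): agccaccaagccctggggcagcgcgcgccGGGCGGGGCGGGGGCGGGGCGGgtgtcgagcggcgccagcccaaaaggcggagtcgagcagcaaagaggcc
Unc5b, chr20:29307271-29307370 (- strand): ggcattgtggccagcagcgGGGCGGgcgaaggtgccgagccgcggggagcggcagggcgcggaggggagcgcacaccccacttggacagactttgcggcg
Efna3, chr2:177035839-177035938 (- strand): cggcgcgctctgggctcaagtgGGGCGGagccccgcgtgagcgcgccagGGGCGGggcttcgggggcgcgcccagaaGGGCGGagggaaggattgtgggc
Epha8, chr5:154476967-154477066 (- strand): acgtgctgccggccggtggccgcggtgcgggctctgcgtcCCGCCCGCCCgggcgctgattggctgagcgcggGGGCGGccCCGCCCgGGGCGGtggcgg
Slit3, chr10:20075829-20075928 (+ strand): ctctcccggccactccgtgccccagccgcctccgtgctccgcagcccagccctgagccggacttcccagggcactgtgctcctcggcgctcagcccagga
Robo3, chr8:45340223-45340322 (- strand): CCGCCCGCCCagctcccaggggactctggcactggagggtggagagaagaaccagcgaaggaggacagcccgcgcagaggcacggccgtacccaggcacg
The table had no entry for Epha4.

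Searched on both strands, at least 1 GC box lay in the windows of Efna1, Unc5b, Efna3, Epha8 and Robo3, and none in that of Slit3. Epha8 had 5 of them, 18 CpG dinucleotides and a GC content of 85%, and Efna1 had 4, 13 and 78%. A GC box was in 14 of the 33 member promoters, since Robo1 has more than 1 promoter entry, or 42.4%, against 21.6% of all 33469 promoter windows of this length. The promoter letters TATAAA, or TTTATA on the other strand, were in none of the member windows and in 5.78% of all windows. These counts describe the windows and were not tested. Robo3, the member that rose most on the log2 scale in the thalamus, and Epha8, the one that fell most, both hold GC boxes.

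Depth ranged from 30568927 to 54608922 fragments per library. Before deposit the fragments of each locus had been scaled by 1 factor per library, and the scaled values are termed normalized counts. They are not divided by gene length, so levels are compared between groups and not between genes. Loci with a mean of at least 10 normalized counts over the libraries compared were tested with limma on log2(normalized count + 1), and a gene was called where the Benjamini-Hochberg adjusted p lay under 0.05. Log2 fold changes give TBI over sham, pseudocount included. The p-values of TBI against sham within a region measure the spread between rats. For comparisons across regions they measure the spread between libraries. The pairing of both regions of a rat enters only in fits with the rat as a replicate block.

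Some libraries stood apart in markers of neighbouring tissue. The summed normalized count of 6 choroid plexus genes was 255855 in the thalamus of TBI rat 45 and 106435 in the thalamus of sham rat 50, against group medians of 1335 and 1114. The thalamus of TBI rat 45 also had 48218 over 7 fibroblast and meningeal genes, against a median of 2941 in its group. In the cortex the choroid plexus sum reached 31722 in TBI rat 45 and 23370 in sham rat 26, against group medians of 974 and 2325, and TBI rat 45 had the highest fibroblast and meningeal sum there, 50701. No marker was at 0 in every library, and 1 of 74, the cortical gene Emx1, was at 0 in 1 library. The regions matched their names: in sham rats all 5 thalamic identity genes were higher in the thalamus, and all 7 cortical identity genes were higher in the cortex. Calls of members in either region that ended without TBI rat 45 have their values without it beside them. Other genes named below were not followed in that fit.

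In the perilesional cortex 13 of 38 members tested were called, 5 higher and 8 lower after TBI. The shares were 13.2% higher and 21.1% lower, against 14.3% and 14.9% of all 15493 loci tested. In the ipsilateral thalamus 15 of 38 were called, 5 higher and 10 lower, or 13.2% and 26.3%, against 14.5% and 20.9% of 15564 loci. With the TMM scaling factors of edgeR in place of the deposited scaling, the thalamus had 7 members higher and 8 lower. Without TBI rat 45 limma called 2 members higher and 7 lower in the cortex, and 0 higher and 10 lower in the thalamus. At an unadjusted p under 0.05, that thalamic fit had 7 higher and 13 lower. The groups did not overlap for 2 members in the cortex, 5.26% against a background of 12.5%, and for 5 in the thalamus, 13.2% against 18.2%. The families were thus called about as often as other loci, and the results lie in which members changed. The median log2 fold change of the members was 0.01 in the cortex and -0.08 in the thalamus, beside -0.01 and -0.02 over all loci tested. Epha1 in the cortex and Ntn5 in the thalamus had means under 10 and were not tested.

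Efna1 and Efna4 were called higher in both regions, and Efna5, Epha4, Epha6 and Epha7 lower in both. The thalamic calls of Efna1 and Efna4 ended without TBI rat 45 and by edgeR, and that of Epha7 by TMM scaling, edgeR and DESeq2. No member was called in opposite directions. Of the other calls, 3 rises and 4 falls were made in the cortex alone, and 3 rises and 6 falls in the thalamus alone. For 2 of these, Efna3 and Epha8, the TBI effect differed between the regions by a test of that difference.

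**Figure D1:**
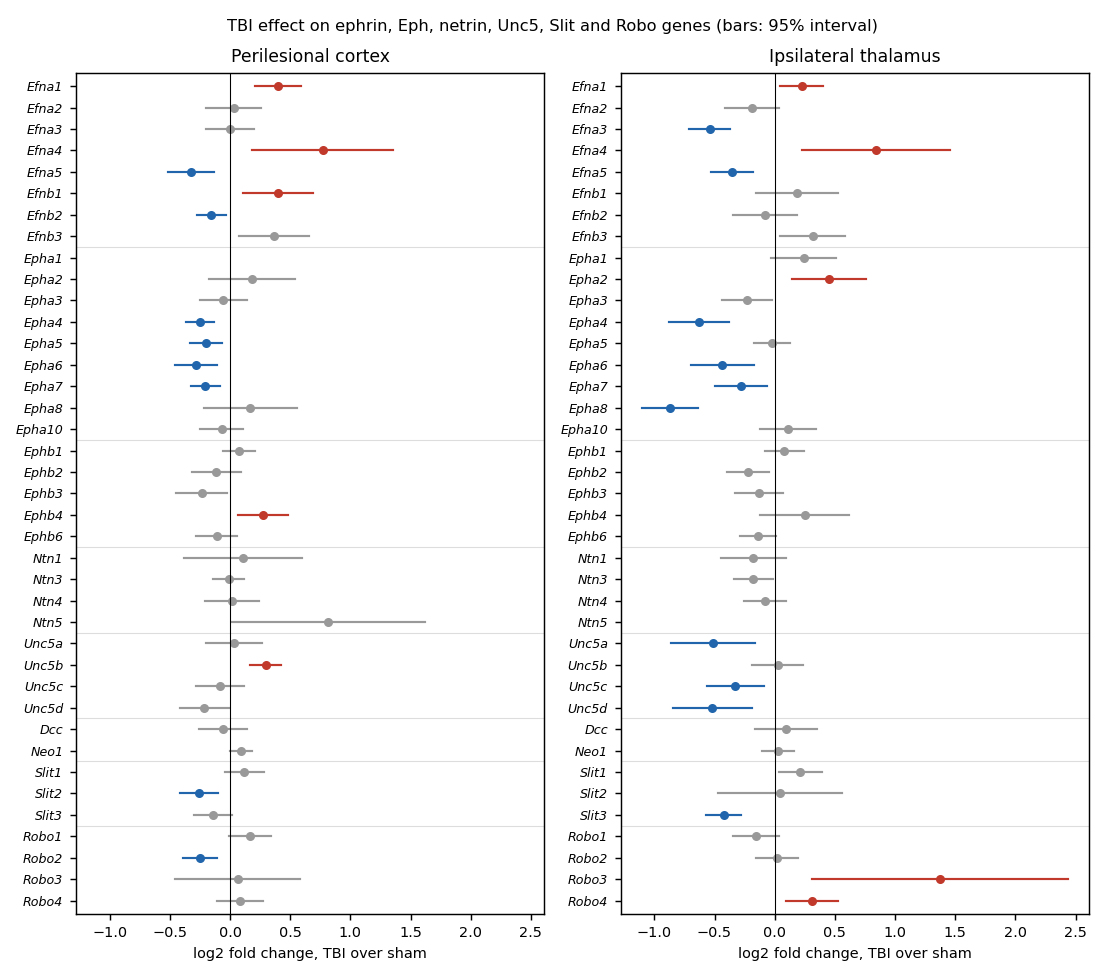
Log2 fold change of TBI over sham for each member (points) with its 95% interval (bars) in the perilesional cortex and the ipsilateral thalamus, 6 rats per group, ordered by family. Red marks members called higher and blue those called lower at an adjusted p under 0.05. EphA receptors were called lower in 4 cases in each region, and an unadjusted interval clear of 0 in grey did not pass the adjustment.

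Among the 5 ephrin-A ligands, 2 rose and 1 fell in the cortex, or 40% and 20%, against 14.3% and 14.9% of all loci. In the thalamus 2 rose and 2 fell, or 40% each way, against 14.5% and 20.9%. Efna1, a ligand long known as inducible in endothelium, ranged in the cortex from 194 to 268 (median 234) in sham rats and from 280.3 to 339 (median 309.7) in TBI rats. Every TBI rat lay above every sham rat (log2 fold change 0.40, SE 0.09, limma adjusted p = 0.00463, a 1.32-fold level). In the thalamus it ranged from 280.1 to 379 (median 328) in sham rats and from 339 to 425 (median 388) in TBI rats, and 4 of 6 TBI rats lay above all sham rats (log2 fold change 0.23, SE 0.08, limma adjusted p = 0.0487). Without TBI rat 45 the difference was as large but not called (log2 fold change 0.23, limma adjusted p = 0.0688). Efna4, another lipid-anchored ligand, was low throughout. Its normalized counts ranged in the cortex from 11.3 to 23.7 (median 17) in sham rats and from 15.5 to 44.6 (median 33.6) in TBI rats, with 4 TBI rats above all sham rats (log2 fold change 0.77, SE 0.28, limma adjusted p = 0.0474, and without TBI rat 45 log2 fold change 0.71, limma adjusted p = 0.0929). The thalamus gave values from 8.3 to 22.9 (median 15.7) in sham rats and from 18.1 to 49.8 (median 25) in TBI rats, and here 3 TBI rats lay above the sham range (log2 fold change 0.84, SE 0.29, limma adjusted p = 0.0351, and without TBI rat 45 log2 fold change 0.67, limma adjusted p = 0.0753).

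Efna5, a ligand that helps to order thalamocortical maps during development, was lower in both regions. It ranged in the cortex from 3258 to 3839.6 (median 3482) in sham rats and from 2093 to 3387 (median 2879) in TBI rats (log2 fold change -0.32, SE 0.09, limma adjusted p = 0.0144). In the thalamus the values ran from 1177 to 1506 (median 1214) in sham rats and from 894 to 1219 (median 963) in TBI rats (log2 fold change -0.35, SE 0.08, limma adjusted p = 0.00415). In each region 5 of 6 TBI rats lay below all sham rats, and 1 TBI rat reached into the sham range. Efna3 fell in the thalamus, where it ranged from 1121 to 1371 (median 1306) in sham rats and from 735 to 1025 (median 869.6) in TBI rats. All 6 TBI rats lay below all sham rats there (log2 fold change -0.54, SE 0.08, limma adjusted p = 0.00016, a 0.689-fold level). In the cortex Efna3 ranged from 1164 to 1556 (median 1366) in sham rats and from 1069 to 1517 (median 1402) in TBI rats, and the groups overlapped almost fully (95% interval -0.20 to 0.20 for the log2 fold change, limma adjusted p = 0.997). Efna2 was called in neither region (log2 fold change 0.03, limma adjusted p = 0.855 in the cortex and log2 fold change -0.19, limma adjusted p = 0.181 in the thalamus).

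Efna1, Efna3 and Efna4 lie next to each other on chromosome 2, between 208002107 and 208070220 in the deposited annotation, which the submitters' notes tie to Rnor_5.0 and the study's methods to RGSC3.4 with an Rnor_5.0 annotation. Of these neighbours, Efna1 and Efna4 were the ones called higher in the thalamus, while Efna3, which lies between them, was called lower.

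Of the ephrin-B ligands, Efnb1 and Efnb2 were called in the cortex and none in the thalamus. Efnb1 ranged there from 412 to 659 (median 515) in sham rats and from 531 to 903 (median 614) in TBI rats, with 2 TBI rats above all sham rats (log2 fold change 0.40, SE 0.14, limma adjusted p = 0.0397, and without TBI rat 45 log2 fold change 0.31, limma adjusted p = 0.0877). Efnb2, the ligand that marks arterial endothelium and is also made by neurons, ranged from 2351 to 2598 (median 2481) in sham rats and from 2059 to 2598 (median 2177) in TBI rats. In this gene 5 TBI rats lay below all sham rats and TBI rat 63 lay within their range (log2 fold change -0.16, SE 0.06, limma adjusted p = 0.0476, and without TBI rat 45 log2 fold change -0.16, limma adjusted p = 0.0738). Efnb3, a ligand of the midline and of myelin, did not pass the test (log2 fold change 0.36, limma adjusted p = 0.0566 in the cortex, log2 fold change 0.32, limma adjusted p = 0.0646 in the thalamus). In the thalamus the log2 fold change was 0.19 for Efnb1 (95% interval -0.15 to 0.53) and -0.08 for Efnb2 (95% interval -0.34 to 0.19), neither of them called. At an unadjusted p under 0.05 limma had 1 ephrin-B ligand in the thalamus, Efnb3. Without the thalamus library of sham rat 55, edgeR and DESeq2 called none of them there. With TMM scaling Efnb3 was called higher in the thalamus (log2 fold change 0.37, limma adjusted p = 0.0362). In the cortex both tools called Efnb3 higher on the recovered fragments.

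Of the EphA receptors, 4 of 8 tested fell in the cortex, or 50%, against 14.9% of all loci, and 4 of 9 in the thalamus, or 44.4%, against 20.9%. With all 24 libraries in 1 fit the cortical calls of Epha4, Epha6 and Epha7 were lost (limma adjusted p = 0.0587, 0.0582 and 0.0737). Epha4, which binds ephrins of both classes and restrains axon growth after injury, ranged in the cortex from 10462 to 12537 (median 11434) in sham rats and from 9074 to 10924 (median 9418) in TBI rats, with 5 of 6 TBI rats below all sham rats (log2 fold change -0.25, SE 0.05, limma adjusted p = 0.00409). In the thalamus it ranged from 9529 to 14841 (median 11556) in sham rats and from 6284 to 8723 (median 7579.9) in TBI rats. There all 6 TBI rats lay below all sham rats (log2 fold change -0.63, SE 0.12, limma adjusted p = 0.000935, a 0.646-fold level). Epha6 ranged in the cortex from 1430.0 to 2004 (median 1792) in sham rats and from 1319.7 to 1688 (median 1364) in TBI rats (log2 fold change -0.28, SE 0.08, limma adjusted p = 0.0181), with 4 TBI rats below the sham range. In the thalamus it ran from 2676 to 4897 (median 3845) in sham rats and from 2397 to 3519 (median 2708) in TBI rats (log2 fold change -0.43, SE 0.12, limma adjusted p = 0.014), with 3 below. The locus of Epha6 is joined with an unnamed Ensembl gene, ENSRNOG00000045703, so its reads may come from either.

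Epha7, a receptor for ephrin-A5 in the developing forebrain, ranged in the cortex from 2008 to 2432 (median 2170.1) in sham rats and from 1757 to 2062 (median 1900.2) in TBI rats (log2 fold change -0.20, SE 0.06, limma adjusted p = 0.0143). Its thalamic values ran from 1587 to 2587 (median 1928) in sham rats and from 1424 to 1766 (median 1615) in TBI rats (log2 fold change -0.28, SE 0.10, limma adjusted p = 0.0438). That call was lost with TMM scaling (limma adjusted p = 0.0954), by edgeR (adjusted p = 0.113) and by DESeq2 (adjusted p = 0.0899). In the cortex 5 and in the thalamus 3 of 6 TBI rats lay below all sham rats. Epha5, also an ephrin-A receptor of forebrain neurons, fell in the cortex, where it ranged from 3476 to 4304 (median 3906) in sham rats and from 3044 to 3704 (median 3479.9) in TBI rats (log2 fold change -0.20, SE 0.06, limma adjusted p = 0.0242). In the thalamus its groups overlapped throughout (log2 fold change -0.02, limma adjusted p = 0.832, 95% interval -0.17 to 0.13).

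Epha8 had the largest fall of the members in the thalamus on the log2 scale. It ranged there from 839 to 1161 (median 1028) in sham rats and from 443 to 638 (median 580.0) in TBI rats, and the lowest sham rat lay well above the highest TBI rat (log2 fold change -0.87, SE 0.11, limma adjusted p = 3.93e-05, a 0.547-fold level). In the cortex it ranged from 145 to 299 (median 188) in sham rats and from 161 to 284 (median 212) in TBI rats, with every TBI rat inside the sham range (log2 fold change 0.17, limma adjusted p = 0.516). Epha2, a receptor of endothelium and epithelia, was the only EphA receptor called higher, and only the thalamic test called it. It ranged there from 65.1 to 102 (median 77) in sham rats and from 92.9 to 135 (median 99.9) in TBI rats, with 3 TBI rats above all sham rats (log2 fold change 0.45, SE 0.14, limma adjusted p = 0.0254, and without TBI rat 45 log2 fold change 0.38, limma adjusted p = 0.0535). Epha1, Epha3 and Epha10, the last with an inactive kinase, were not called in either region, with Epha1 untested in the cortex. Epha3 came nearest (log2 fold change -0.23, limma adjusted p = 0.0804 in the thalamus).

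Of the 5 EphB receptors, 1 was called higher in the cortex, or 20% against 14.3% of all loci, and none was called in the thalamus. Ephb4, the receptor for ephrin-B2 on venous endothelium, ranged in the cortex from 321 to 409 (median 356) in sham rats and from 379 to 547 (median 412) in TBI rats, and 3 TBI rats lay above all sham rats (log2 fold change 0.28, SE 0.10, limma adjusted p = 0.0433, and without TBI rat 45 log2 fold change 0.21, limma adjusted p = 0.0935). In the thalamus its values ran from 231 to 323 (median 279) in sham rats and from 269 to 603 (median 293) in TBI rats (log2 fold change 0.25, limma adjusted p = 0.293). The highest of these was TBI rat 45, the library with the most choroid plexus and meningeal RNA, and without it the log2 fold change was 0.07. Ephb1, Ephb2, Ephb3 and the kinase-inactive Ephb6 were not called. No EphB receptor was called in the thalamus by edgeR or DESeq2 either, both without the thalamus library of sham rat 55. At an unadjusted p under 0.05 limma had 1, Ephb2, which was nearest to the threshold (log2 fold change -0.22, limma adjusted p = 0.0502).

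No netrin gene was called by limma, edgeR or DESeq2 with all libraries that entered each fit, and at an unadjusted p under 0.05 limma had 1 in each region, Ntn5 higher in the cortex and Ntn3 lower in the thalamus. With 1 library left out, limma called Ntn3 lower in the thalamus without TBI rat 22 or sham rat 32 (lowest adjusted p = 0.0246), and Ntn5 higher in the cortex without TBI rat 56 (adjusted p = 0.0407). Their log2 fold changes ran from -0.01 to 0.82 in the cortex, over 4 genes, and from -0.18 to -0.08 in the thalamus, over 3. Ntn1, the founding netrin, ranged from 57 to 109.8 (median 82.4) in sham rats and from 62.5 to 180.5 (median 79.3) in TBI rats in the cortex (log2 fold change 0.11, limma adjusted p = 0.754), where TBI rat 24 alone lay above the sham range. In the thalamus it ranged from 120.0 to 173 (median 141) in sham rats and from 93.6 to 142 (median 131) in TBI rats (log2 fold change -0.18, limma adjusted p = 0.296). Ntn4, a netrin of basement membranes, was near 0 in both regions (95% interval -0.21 to 0.24 in the cortex and 95% interval -0.26 to 0.09 in the thalamus). The most abundant Ntn3 locus is joined with Tbc1d24, so its values cannot be given to the netrin alone. The locus that carries the Ntn3 name alone ranged from 78 to 108 (median 92.3) in sham rats and from 70.3 to 94 (median 80.2) in TBI rats in the cortex and was not called there (log2 fold change -0.20, limma adjusted p = 0.231). Nor was this locus called in the thalamus (log2 fold change -0.32, limma adjusted p = 0.205). Ntn5 was at the edge of detection, from 2.23 to 13.6 (median 9.43) in sham rats and from 5.69 to 21 (median 15.6) in TBI rats in the cortex (log2 fold change 0.82, limma adjusted p = 0.116).

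The Unc5 receptors, which turn netrin into a repellent, had 1 call in the cortex and 3 in the thalamus, and for none of them was a difference of the TBI effect between regions called. Of 4 tested, 25% were called higher in the cortex, against 14.3% of all loci, and 75% lower in the thalamus, against 20.9%. In the cortex Unc5b was called higher and the other 3 were not called. Unc5b, which neurons and endothelium both make, ranged there from 1601 to 1967 (median 1739) in sham rats and from 2000.0 to 2262 (median 2199.5) in TBI rats. Every TBI rat lay above every sham rat (log2 fold change 0.30, SE 0.06, limma adjusted p = 0.00241, a 1.23-fold level). In the thalamus it ranged from 3579 to 4969 (median 4128) in sham rats and from 3569 to 5195 (median 4228) in TBI rats (95% interval -0.19 to 0.23, limma adjusted p = 0.874).

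Unc5a, Unc5c and Unc5d were called lower in the thalamus by limma. On the recovered fragments, without the thalamus library of sham rat 55, edgeR called none of them (adjusted p = 0.0694, 0.12 and 0.0615) and DESeq2 called Unc5a and Unc5d, as limma did with TMM scaling. Unc5a ranged from 587 to 903 (median 707) in sham rats and from 298 to 679.8 (median 519) in TBI rats, with 5 TBI rats below all sham rats (log2 fold change -0.51, SE 0.16, limma adjusted p = 0.0242). Unc5c ranged from 2022 to 2741 (median 2415) in sham rats and from 1532 to 2395 (median 1864) in TBI rats (log2 fold change -0.33, SE 0.11, limma adjusted p = 0.0322). For Unc5d, which also binds the Flrt adhesion proteins, the values ran from 122 to 180.4 (median 169) in sham rats and from 89.4 to 151 (median 100) in TBI rats (log2 fold change -0.52, SE 0.15, limma adjusted p = 0.0177). In both of these genes 4 of 6 TBI rats lay below the sham range. In the cortex the log2 fold changes were 0.04 for Unc5a, -0.08 for Unc5c and -0.21 for Unc5d (limma adjusted p from 0.104 to 0.834).

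Dcc, the attractive netrin receptor, and neogenin were not called in either region. Dcc gave a log2 fold change of -0.06 in the cortex (95% interval -0.26 to 0.14) and 0.10 in the thalamus (95% interval -0.16 to 0.35). Neo1 gave 0.09 (95% interval 0.00 to 0.18) and 0.03 (95% interval -0.10 to 0.16). Its cortical values ranged from 3988 to 4382 (median 4276) in sham rats and from 4298 to 4760.5 (median 4507) in TBI rats, so 5 of 6 TBI rats lay above all sham rats in a difference that did not pass the adjustment (limma adjusted p = 0.107). DESeq2 on the recovered fragments called it higher in the cortex, and edgeR did not.

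Of the Slit ligands, Slit2 fell in the cortex and Slit3 in the thalamus. Slit2 ranged in the cortex from 1767 to 2133 (median 2025) in sham rats and from 1407 to 1893 (median 1637) in TBI rats, with 4 TBI rats below all sham rats (log2 fold change -0.26, SE 0.07, limma adjusted p = 0.0171). This call was lost with all 24 libraries in 1 fit (limma adjusted p = 0.329). Slit3 ranged in the thalamus from 1388 to 1783 (median 1558) in sham rats and from 1065 to 1261 (median 1164) in TBI rats, and all 6 TBI rats lay below all sham rats (log2 fold change -0.42, SE 0.07, limma adjusted p = 0.000271, a 0.746-fold level). Its cortical values ran from 1967 to 2601 (median 2321) in sham rats and from 1908 to 2424 (median 1989) in TBI rats (log2 fold change -0.14, limma adjusted p = 0.156). In the thalamus Slit2 ranged from 565 to 851 (median 729) in sham rats and from 549 to 1786 (median 603) in TBI rats, with the highest value again in TBI rat 45. Its log2 fold change there was 0.05 with all rats and -0.21 without rat 45 (limma adjusted p = 0.901 and 0.17), so the sign rested on that library. Slit1 was not called (log2 fold change 0.12, limma adjusted p = 0.256 in the cortex and log2 fold change 0.21, limma adjusted p = 0.0588 in the thalamus). On the recovered fragments, without the thalamus library of sham rat 55, edgeR and DESeq2 called it higher in the thalamus. With TMM scaling of all thalamus libraries limma called 1 of the 3 Slits higher there, against 0 with the deposited scaling.

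Among the Robo receptors, Robo2 fell in the cortex, and Robo3 and Robo4 rose in the thalamus. Robo2 ranged in the cortex from 4568 to 5714 (median 5094) in sham rats and from 3855 to 5049 (median 4209.7) in TBI rats, with 5 TBI rats below all sham rats and TBI rat 63 inside their range (log2 fold change -0.25, SE 0.07, limma adjusted p = 0.0115). In the thalamus its groups overlapped fully (log2 fold change 0.02, limma adjusted p = 0.868, 95% interval -0.15 to 0.19). Robo3, which tempers the response to Slit in crossing axons, ranged in the thalamus from 2.86 to 48.5 (median 35.4) in sham rats and from 54.4 to 89.4 (median 64) in TBI rats. Every TBI rat lay above every sham rat (log2 fold change 1.37, SE 0.50, limma adjusted p = 0.0436, and without TBI rat 45 log2 fold change 1.29, limma adjusted p = 0.0747), but the lowest sham value, that of rat 26, was far below the rest and widened the error. Without that library the log2 fold change was 0.82. Robo4, the endothelial member of the family, ranged from 178 to 219.6 (median 199) in sham rats and from 211 to 309.9 (median 243) in TBI rats, with 4 TBI rats above all sham rats (log2 fold change 0.31, SE 0.10, limma adjusted p = 0.0264, and without TBI rat 45 log2 fold change 0.25, limma adjusted p = 0.0506). The annotation gives Robo3 and Robo4 the same span on chromosome 8, so fragments of the 2 neighbours may not be cleanly split. Robo1 was called in neither region (log2 fold change 0.17, limma adjusted p = 0.137 in the cortex and log2 fold change -0.16, limma adjusted p = 0.195 in the thalamus).

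**Figure D2:**
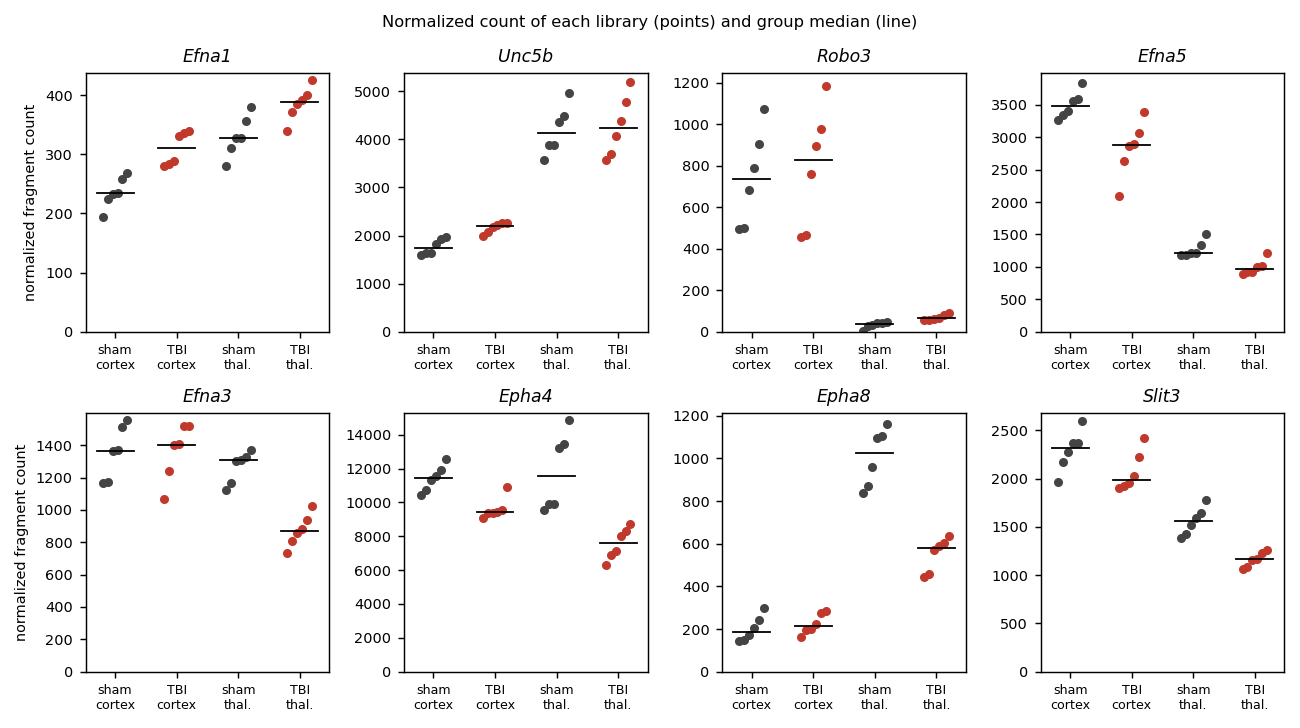
Normalized fragment count of 8 members in every library (points, gray for sham and red for TBI) with the group median (line), 6 rats per group. TBI points of Efna1 and Unc5b lie above all sham points in the cortex, those of Robo3 do so in the thalamus, and those of Efna3, Epha4, Epha8 and Slit3 lie below all sham points in the thalamus.

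Several calls lay near the threshold. Each of the 12 libraries of a region was left out in turn. In the cortex the calls of Efna1, Unc5b, Epha4, Epha6, Epha7, Efna5, Robo2 and Slit2 were kept each time. The call of Epha5 ended without TBI rats 52 and 56 or sham rats 38 and 50 (log2 fold change -0.23 to -0.17, highest limma adjusted p = 0.0611). For Efnb1 it ended without TBI rats 22, 24 and 45 or sham rats 26, 32, 34, 38 and 50 (log2 fold change 0.31 to 0.48, highest limma adjusted p = 0.0877). For Efnb2 it ended without TBI rats 22, 24, 45, 52 and 56 or sham rats 26, 32, 34, 38 and 50 (log2 fold change -0.20 to -0.13, highest limma adjusted p = 0.102). The call of Ephb4 was lost without TBI rats 22, 24, 45 and 52 or sham rats 26, 32, 34 and 50 (log2 fold change 0.21 to 0.32, highest limma adjusted p = 0.0958). The call of Efna4 was lost without TBI rats 22, 24, 45 and 52 or sham rats 32, 38, 50 and 55 (log2 fold change 0.65 to 0.94, highest limma adjusted p = 0.106). The cortex thus had 8 members that were called whichever library was left out, and these were 2 rises and 6 falls. Calls that appeared in at least 1 of these fits were those of Efnb3, Ephb3, Ntn5 and Unc5d.

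In the thalamus the calls of Efna3, Efna5, Epha4, Epha6, Epha8, Slit3 and Unc5d, all falls, were kept each time. Unc5a lost its call without sham rat 26 (log2 fold change -0.60 to -0.37, highest limma adjusted p = 0.0553). The call of Unc5c ended without TBI rats 24, 52 and 56 or sham rats 38, 50 and 55 (log2 fold change -0.39 to -0.26, highest limma adjusted p = 0.0755). For Epha7 it ended without TBI rats 52, 56 and 63 or sham rats 26, 38, 50 and 55 (log2 fold change -0.34 to -0.20, highest limma adjusted p = 0.0894). All 5 calls of rises ended without TBI rat 45, with log2 fold changes of 0.23 to 1.29 in place of 0.23 to 1.37, and all 5 also ended when certain other libraries were left out. Without sham rat 50, the other library rich in choroid plexus RNA, 1 member was called higher. The rise of Epha2 ended without TBI rats 45 and 52 or sham rats 26 and 50 (log2 fold change 0.38 to 0.53, highest limma adjusted p = 0.0594). That of Robo4 ended without TBI rats 24 and 45 or sham rats 26 and 34 (log2 fold change 0.24 to 0.36, highest limma adjusted p = 0.0556). That of Robo3 ended without TBI rats 22, 24, 45, 52, 56 and 63 or sham rats 32 and 50 (log2 fold change 0.82 to 1.56, highest limma adjusted p = 0.0747). That of Efna4 ended without TBI rats 22, 45 and 52 or sham rats 38, 50 and 55 (log2 fold change 0.67 to 0.96, highest limma adjusted p = 0.0772). That of Efna1 ended without TBI rats 22, 24, 45, 56 and 63 or sham rats 32, 38, 50 and 55 (log2 fold change 0.18 to 0.27, highest limma adjusted p = 0.104). The fold changes kept their sign in each of these fits. Efnb3, Epha3, Ephb2, Ephb6, Ntn3 and Slit1 were called in at least 1 of them.

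**Figure D3:**
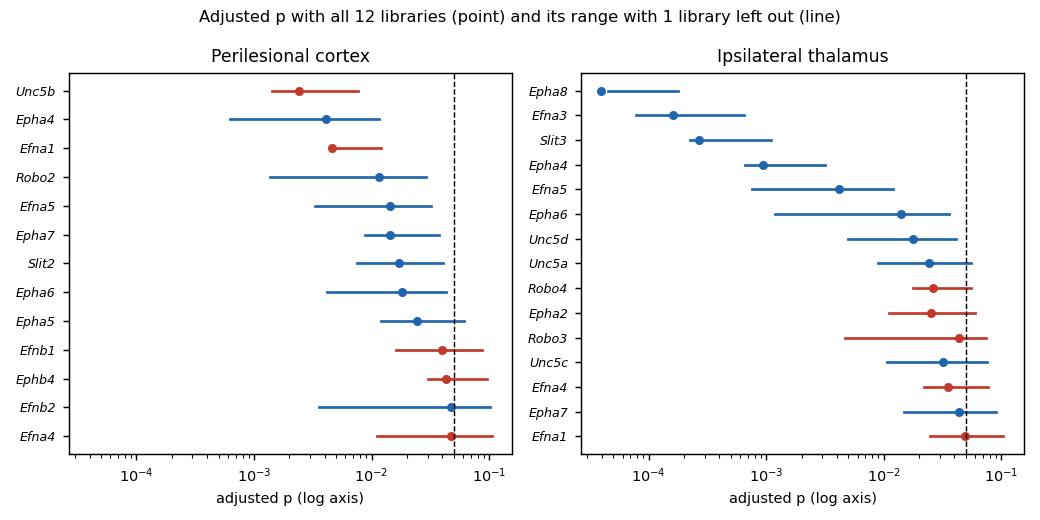
Adjusted p of each called member with all 12 libraries of a region (points) and the range of that p when 1 library is left out (lines), on a log axis with the threshold of 0.05 dashed. Red marks higher and blue lower after TBI, and all 5 rises of the thalamus cross the threshold while 7 of its 10 falls do not.

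Whether the injury acted differently in the 2 regions was asked with an interaction term in a fit of the 24 libraries. Of 38 members, 2 differed, or 5.26%, against 7.26% of 15678 loci. Epha8 was called lower in the thalamus and was not called in the cortex (difference of log2 fold changes -1.04, SE 0.23, limma adjusted p = 0.00602). The same was true of Efna3 (difference -0.54, SE 0.13, limma adjusted p = 0.0118). Both calls were kept whichever library was left out. No member had the opposite difference by limma, edgeR or DESeq2, and at an unadjusted p under 0.05 limma had 2, Robo2 and Robo3. With the rat as a replicate block, Robo1 was added, with a difference of -0.32 (limma adjusted p = 0.0282 with the block and 0.123 without).

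For the other members called in 1 region alone, a difference between the regions was not shown. The nearest to the threshold were Slit3, with a difference of -0.28 (limma adjusted p = 0.0935), Unc5a with -0.55 (limma adjusted p = 0.11) and Robo2 with 0.27 (limma adjusted p = 0.132). Unc5b gave -0.27 (95% interval -0.52 to -0.02, limma adjusted p = 0.177). Robo3 had the widest interval (95% interval 0.09 to 2.52). Epha4, called lower in both regions, gave -0.38 (limma adjusted p = 0.0888).

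**Figure D4:**
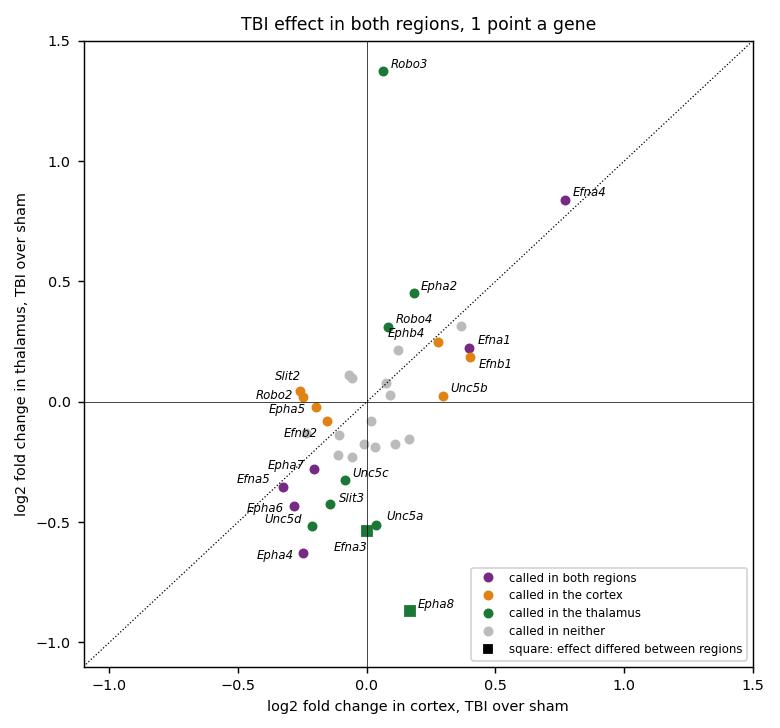
Log2 fold change of TBI over sham in the cortex (x axis) and in the thalamus (y axis), 1 point per member tested in both regions, with equal change on the dotted line. Colours show where a member was called, and the squares mark Efna3 and Epha8, which lie at about 0 and at 0.17 in the cortex but at -0.54 and -0.87 in the thalamus.

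The regions themselves differed far more than TBI and sham rats did. In sham rats 11 of 38 members were higher in the thalamus than in the cortex and 16 were lower, or 28.9% and 42.1%, against 33.9% and 28.3% of 15582 loci. All 27 of these calls were kept in every setting tried. Between these regions Epha1 was found almost only in the thalamus, with values from 233 to 358 (median 265) there and from 2.32 to 11.3 (median 8.27) in the cortex (log2 fold change 5.20, SE 0.28, limma adjusted p = 2.05e-10). Its locus shares a listed span with another named locus. Epha8 was also higher in the thalamus, from 839 to 1161 (median 1028) against from 145 to 299 (median 188) (log2 fold change 2.35, SE 0.16, limma adjusted p = 3.56e-09). Epha6 was 2.16 times as high in the thalamus, Unc5b 2.37 times, Neo1 1.78 times, Ntn1 1.75 times, Robo1 1.69 times and Unc5c 1.62 times. Epha3, Efna1 and Epha10 were higher there by smaller folds, from 1.25 to 1.41.

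On the cortical side stood Robo3, from 496 to 1072 (median 738) in the cortex against from 2.86 to 48.5 (median 35.4) in the thalamus (log2 fold change -4.76, SE 0.49, limma adjusted p = 4.53e-07). Efnb2, the next by size, ranged from 2351 to 2598 (median 2481) in the cortex and from 338 to 496 (median 367) in the thalamus (log2 fold change -2.66, SE 0.08, limma adjusted p = 3.35e-13). Unc5a and Unc5d were lower in the thalamus (log2 fold change -2.37 and -2.03), so the Unc5 family divided into Unc5a and Unc5d in the cortex and Unc5b and Unc5c in the thalamus. All 3 Slits were lower in the thalamus, Slit2 by the most (log2 fold change -1.49, SE 0.10, limma adjusted p = 2.16e-09). Robo2 and Robo1 parted, with log2 fold changes of -1.31 and 0.76. Of the EphB receptors 4 of 5 were lower in the thalamus, from -1.31 for Ephb3 to -0.23 for Ephb1. Efna5, Epha5, Efnb1 and the joined Ntn3 locus completed the list. Efna3 and Epha4, which fell in the injured thalamus, did not differ between the sham regions by the test (limma adjusted p = 0.316 and 0.831).

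Dcc gave a caution. Its most abundant locus did not differ between the regions by the test (95% interval -0.18 to 0.28), but the next of its 3 loci ranged from 39.8 to 91.9 in the sham cortex and from 0 to 2.97 in the sham thalamus. The 3 loci share a listed span, and which transcripts each of them holds was not tested.

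**Figure D5:**
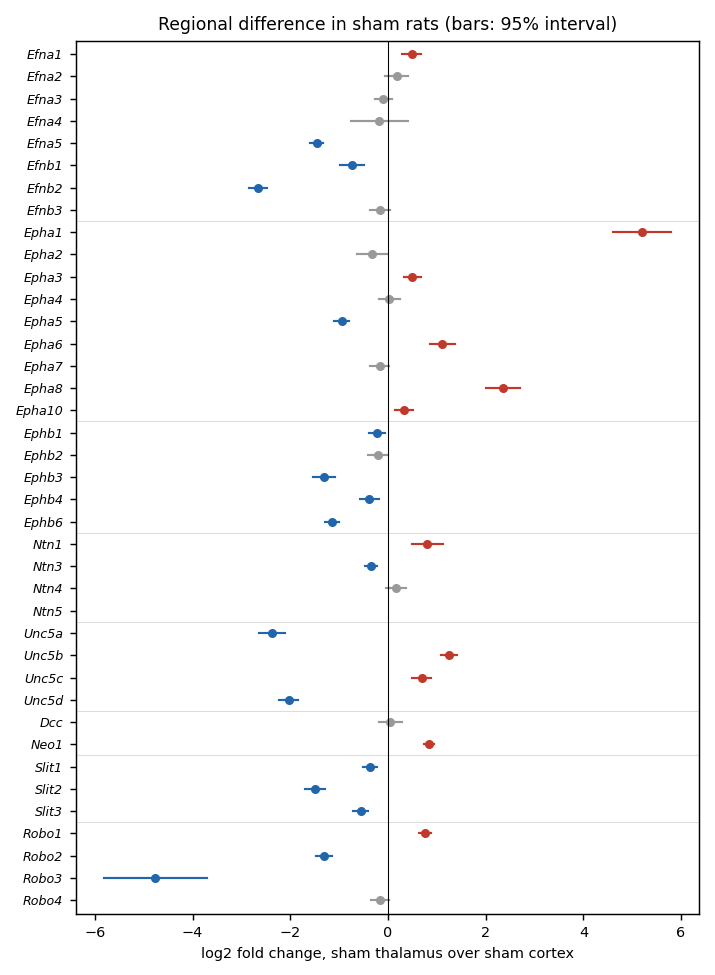
Log2 fold change of sham thalamus over sham cortex for each member (points) with its 95% interval (bars), 6 libraries per region. Red marks 11 members called higher and blue 16 called lower in the thalamus, and the range runs from -4.76 for Robo3 to 5.20 for Epha1.

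Genes that work with these families were read from 3 lists, which were chosen with earlier results of these data known. The shares called in them are therefore descriptive. Of 22 Eph and ephrin signalling partners, 4 rose and 6 fell in the cortex, or 18.2% and 27.3%, against 14.3% and 14.9% of all loci. In the thalamus 5 rose and 5 fell, or 22.7% each way, against 14.5% and 20.9%. Tiam1, a Rac exchange factor downstream of Eph receptors, had the smallest adjusted p in the thalamus, from 3898 to 5159 (median 4509.9) in sham rats and from 2161 to 2868 (median 2437) in TBI rats (log2 fold change -0.89, SE 0.08, limma adjusted p = 1.78e-06). Kalrn, another exchange factor that acts in dendritic spines, fell in both regions, in the thalamus from 7278 to 9921 (median 8279.9) in sham rats and from 5150.0 to 6653 (median 6126) in TBI rats (log2 fold change -0.47, SE 0.09, limma adjusted p = 0.000714). In the cortex its log2 fold change was -0.24 (limma adjusted p = 0.000734), and Anks1b had -0.24 (limma adjusted p = 0.00166). The leading rises were Vav2 and the syndecan Sdc2 in the cortex (log2 fold change 0.61 and 0.30), and the phosphatase Inppl1 and Adam10, a protease that cuts ephrins, in the thalamus (0.28 and 0.27). Tiam1 and Abl1 differed between the regions (difference -0.74 and -0.30, limma adjusted p = 2.81e-05 and 0.0373).

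Of 19 partners of netrins, Unc5 receptors and neogenin, 2 rose and 6 fell in the cortex, or 10.5% and 31.6%, and 2 rose and 7 fell in the thalamus, or 10.5% and 36.8%, against the same shares of all loci as above. Draxin, a secreted protein that binds netrin-1 and Dcc, was the largest rise. It ranged in the cortex from 14.2 to 29.1 (median 22.1) in sham rats and from 77.4 to 339.8 (median 173) in TBI rats (log2 fold change 2.91, SE 0.29, limma adjusted p = 1.05e-05). All 6 TBI rats lay above all sham rats, with no netrin called. In the thalamus it ranged from 165 to 239 (median 189.9) in sham rats and from 268 to 476 (median 279) in TBI rats (log2 fold change 0.66, SE 0.14, limma adjusted p = 0.00226), again without overlap, and the rise was smaller than in the cortex (difference -2.25, limma adjusted p = 0.000185). Dock1, an exchange factor downstream of Dcc, rose by log2 fold changes of 0.16 and 0.27. Pitpna and Lrrc4 led the falls in the cortex (-0.25 and -0.25), and Trio, an exchange factor downstream of Dcc, and Dapk1, a kinase that Unc5 receptors engage, in the thalamus (-0.58 and -0.35). Trio also differed between the regions (difference -0.49, limma adjusted p = 0.00398).

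Of 12 Slit and Robo partners, 1 rose and 3 fell in the cortex, or 8.33% and 25%, against 14.3% and 14.9% of all loci. In the thalamus 1 rose and 5 fell, or 8.33% and 41.7%, against 14.5% and 20.9%. Vasp, which extends actin filaments, was the rise in both regions, with no overlap in either: in the thalamus it ranged from 492 to 615 (median 549) in sham rats and from 751 to 945 (median 798) in TBI rats (log2 fold change 0.59, SE 0.07, limma adjusted p = 3.01e-05). Its cortical log2 fold change was 0.42 (limma adjusted p = 0.000629). Cables1 and Usp33 led the falls in the cortex (-0.37 and -0.39). In the thalamus these were Nell2, a ligand of Robo3, and Gpc1, a proteoglycan that binds Slit (-0.42 and -0.30), the second of which differed between the regions (difference -0.49, limma adjusted p = 0.00796).

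Markers of the cell types in the tissue moved with these results. In the cortex 7 of 9 neuronal markers fell and 9 of 10 microglial markers rose, and their summed normalized counts did not overlap between TBI and sham rats, at 242677 to 322958 against 341517 to 372744 for neurons and at 17547 to 20879 against 12196 to 13264 for microglia. In the thalamus 8 of 9 neuronal markers fell (177610 to 231761 against 273923 to 326658) and all 10 microglial markers rose (28204 to 36564 against 13577 to 17708).

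Markers of regional neurons and of vessels moved as well. All 5 thalamic identity genes fell in the TBI thalamus, with a summed count of 60999 to 72814 against 81981 to 115046 in sham rats. Of the cortical identity genes, 2 of 7 fell in the cortex and 2 of 6 tested in the thalamus, where their sum was 5218 to 7925 against 7826 to 14021 and Slc17a7, the vesicular glutamate transporter of cortical neurons, had a log2 fold change of -1.05 (limma adjusted p = 0.000642). Of the fibroblast and meningeal markers, 6 of 7 rose in the cortex (19549 to 50701 against 12819 to 19095) and none in the thalamus. Of 7 endothelial markers, the cortex had 1 rise and the thalamus 3, with thalamic sums of 12573 to 18362 (median 14004) in TBI and 11069 to 14522 (median 13605) in sham rats. Of 4 mural cell markers 1 rose in the cortex and 3 in the thalamus (14402 to 18674, median 16006, against 11004 to 14669, median 12741). For both lists the highest sum in the TBI thalamus was that of TBI rat 45. Of 4 markers of oligodendrocyte precursors 3 rose in the cortex (8306 to 10794 against 7352 to 8160) and 1 in the thalamus, and of 6 oligodendrocyte markers 3 rose in the cortex (114541 to 155557 against 121271 to 162877) and none in the thalamus. Of 9 astrocyte markers 5 rose in each region and 2 fell in the cortex. Their sums did not overlap between TBI and sham rats, at 406792 to 451551 against 373808 to 394864 in the cortex. In the thalamus the astrocyte sums were 404328 to 465044 against 283942 to 315993. In bulk tissue, fewer cells of a type and less RNA per cell cannot be told apart. The part of these shifts in the changes of ephrins, Eph receptors, Unc5 receptors, Slits and Robos was not tested.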

How the data were processed

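Polyadenylated RNA of both brain regions of 6 rats with TBI and 6 controls was sequenced for the authors by a service laboratory from stranded libraries. Reads were aligned with TopHat2 2.0.11 and Bowtie2 2.2.2 and assembled into loci with Cufflinks 2.2.1, versions as in the submitters' processing notes. Those notes name the build Rnor_5.0, and the study's methods name RGSC3.4 with an Rnor_5.0 annotation. How strand was used in counting is not given in the sources used here. The deposited values are a signal per locus, fragment counts that the authors divided by 1 size factor per library. The share of values that were whole multiples of 1 step, within a tolerance of 0.1, was lowest at 99.97% over the libraries, and depth and whole fragments were recovered from it. The step of the thalamus library of sham rat 55 could not be told from plain rounding by the automatic check, so the count tests of the thalamus and of both regions left it out.

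Groups came from the labels. Members were found by gene name, and the lists of members, partners and markers were chosen with earlier results of these data known. The 15693 loci without a gene name were left out. TBI was compared with sham in each region, the TBI effect between regions as an interaction, and sham thalamus with sham cortex, with lmFit and a trended eBayes (limma 3.58.1, R 4.3.3) on normalized counts in log2 with a pseudocount of 1, over named loci with a mean of at least 10, with Benjamini-Hochberg adjustment over all loci tested and a threshold of 0.05. The fit was checked on simulated data. Every member is named, and those called have their values in full. Of each partner list the 2 genes with the smallest adjusted p in each direction and region are named. Alternatives were TMM scaling, other filters and pseudocounts, a fit of all 24 libraries, leaving out each library, and, on the recovered fragments, edgeR 4.0.16 and DESeq2 1.42.0. Over all loci edgeR called 4440 in the cortex, 4174 in the thalamus, 881 for the difference between regions and 9257 between the sham regions. DESeq2 called 4964, 4740, 1160 and 9438.

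Cortex and thalamus with the same number in the labels came from the same rat. As deviations from the group means, its 2 libraries had a median r of 0.187 over 12 rats, from 0.00393 to 0.569, over 0.1 in 10 of them, against -0.0332 for different rats. The rat as a replicate block was therefore an alternative for comparisons across regions. Promoter sequences were read from the RefSeq table for GRCr8. Fragments are not independent molecules, so depth speaks to counting error only.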

Additional observations from a re-analysis of the deposited data

Results flagged for a closer look

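The TBI effect differed between the regions for 2 members, both by the interaction test: Efna3 with a difference of -0.54 and Epha8 with -1.04 on the log2 scale.

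In 9 of the 156 sets of 6 rats formed by 39 genes and 4 groups, 1 rat lay far from the other 5, where chance alone gives about 7.8. In the thalamus TBI rat 45 was high for Slit2 (1786, against 549 to 719 in the other rats of its group), Ephb4 (603, against 269 to 316) and Efnb2 (510.1, against 322.1 to 392.5), and the same library held the most choroid plexus, fibroblast and meningeal RNA. The part of that RNA in these values was not tested. In the cortex TBI rat 63 was high for Efnb2 (2598, against 2059 to 2235), Epha4 (10924, against 9074 to 9547) and Robo2 (5049, against 3855 to 4284), which placed it in or near the sham range for 3 genes called lower after TBI. TBI rat 63 also had the highest summed count of neuronal markers among the TBI cortices, 322958. TBI rat 24 was high in the cortex for Ntn1 (180.5, against 62.5 to 96.9) and Epha10 (887, against 648 to 725). TBI rat 56 was low in the thalamus for Ntn1 (93.6, against 125 to 142).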

How the results depend on the processing

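The TBI calls depended on the settings more than the regional ones. Of 13 calls in the cortex, 4 were kept in every setting tried (Efna1, Efna5, Robo2 and Unc5b), of 15 in the thalamus 6 were (Efna3, Efna5, Epha4, Epha6, Epha8 and Slit3), and both calls of the difference between regions and all 27 calls between the sham regions were. No called member changed sign. Without a filter on low values, 2 members were called higher in the cortex and 3 in the thalamus. With all 24 libraries in 1 fit, 3 were called higher and 3 lower in the cortex. The calls lost there were those of Efnb1, Efnb2, Epha4, Epha6, Epha7, Ephb4 and Slit2 (limma adjusted p from 0.0582 to 0.329). By edgeR on the recovered fragments, without the thalamus library of sham rat 55, 6 were called lower in the thalamus. Leaving out 1 library gave 2 to 6 higher and 6 to 8 lower in the cortex, 0 to 6 higher and 8 to 12 lower in the thalamus, 0 higher and 2 to 3 lower for the difference between regions, and 11 to 12 higher and 16 to 17 lower between the sham regions. The causes were not tested. In the paired fit, with the rat as a replicate block, 3 members differed between regions in place of 2, and 11 were higher and 17 lower in the sham thalamus, the added call being Epha2 (limma adjusted p = 0.0197 with the block and 0.0535 without). The block changed no other call.

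Rats numbered 6 per group, and members with under about 50 normalized counts, such as Efna4, Ntn5 and Robo3 in the thalamus, had the widest intervals. Fold changes use a pseudocount of 1 and understate the change of such low genes. The values are not divided by gene length, joined loci mix genes, and several members share a listed span with another locus. Efnb1, Epha1, Slit2, Slit3 and Unc5a are among these.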
